A study of Mus musculus with 6 samples.

Results

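Wnt pathway genes were followed in cultured smooth muscle cells of mouse lung arteries (PASMCs), which contract and set the width of these vessels, after 6 h with bone morphogenetic protein 9 (BMP9) and BMP10. The members are the protein-coding genes whose symbols name a Wnt ligand, a Frizzled or LRP5/6 receptor, an R-spondin or its receptor, a secreted antagonist, or a set of intracellular and nuclear components. The rule matched 60 genes of the mouse annotation, of which 53 had a row among the 21785 gene rows of the deposited table. The other 7 (Dkk1, Dkk4, Sp5, Wnt3, Wnt8a, Wnt8b and Wnt9b) were not analysed here. The cells had been grown out of the lungs of C57BL/6 mice from vessels loaded with iron and agarose, and they spent 48 h without supplements before the experiment. In the stimulated group, 3 samples received BMP9 at 1 ng/mL and BMP10 at 5 ng/mL, and 3 control samples received neither. No allele or transgene is named for either group, and the sources used here do not say whether the samples of a group came from separate animals or cultures, so each p-value covers the spread between the 6 samples and nothing wider.

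Wnt proteins are lipid-modified secreted ligands that bind Frizzled receptors on nearby cells. With the co-receptors LRP5 and LRP6 they stop the breakdown of beta-catenin, which then acts with TCF/LEF factors in the nucleus, while other Wnt proteins act through Frizzled and ROR receptors without beta-catenin. In vessels, Wnt and BMP signaling are both known to bear on smooth muscle growth and on the making of arteries.

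Values are normalized read counts, that is, reads per gene multiplied by the authors with 1 factor per library. They sum to between 30786695 and 31903795 in stimulated libraries and to between 27295973 and 28283597 in controls. Every stimulated total is above every control total. Depth was estimated to lie between 23.3 and 28.0 M reads in 5 libraries and to reach 54.3 M reads in stimulated replicate 3. Changes are on the log2(value + 1) scale, stimulated minus control, ± SE, from limma with Benjamini-Hochberg adjustment over all 21743 genes tested. Adding 1 pulls the change of low genes toward 0. A gene is said to have risen or fallen where its adjusted p was under 0.05. Replicate numbers are shared by both groups and were taken to pair the samples. No label states this pairing, and it was weakest for number 3. A second fit with the number as a block is given where it changes a call.

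Transcripts of several cell types were present in the cultures. Summed over 12 markers each, smooth muscle genes, led by Acta2, ranged from 95588 to 201477 in stimulated libraries and from 44515 to 66923 in controls. Acta2 alone was at 69094, 153164 and 105332 in stimulated libraries and at 23470, 37627 and 32172 in controls. Actg2, Lmod1, Tagln and Cnn1 were also higher in every stimulated library than in any control. Mylk, Casq2, Synpo2, Myh11, Des, Smtn and Myocd overlapped between the groups. Macrophage genes, led by Lyz2, ranged from 147642 to 223660 in stimulated libraries and from 99451 to 172224 in controls. The sums of endothelial markers (9721 to 43726 in stimulated libraries, 12354 to 46574 in controls), lung epithelial markers (3648 to 38996 and 9296 to 38596) and 6 mesothelial markers (295 to 2761 and 830 to 3254) were each highest in replicate 2 of both groups. The sums of fibroblast markers did not overlap, with 32738 to 36844 in stimulated libraries and 38747 to 48684 in controls. Pdgfra was at 4208, 5778 and 3983 in stimulated libraries and at 9120, 12719 and 12221 in controls. Fgf10 was also lower in every stimulated library than in any control. The other fibroblast markers overlapped, and Npnt was higher in the stimulated sample of each same-numbered pair. No marker of any list was at 0 in every library. The part of these cells in the results below was not tested, and in bulk RNA fewer cells of a type and less RNA per cell cannot be told apart.

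Among Wnt pathway genes, rises outnumbered falls on the deposited values (73.7% of the members' calls). Over all genes tested they did too (64.5% of calls). All 53 members had a mean of at least 1 and were tested. Of these, 14 rose, 5 fell and 34 did not pass. That makes 26.4% rising and 9.43% falling, beside 8.61% rising and 4.75% falling of all genes tested. The members are all protein-coding, while only 15852 of the 21785 gene rows are. Shares among protein-coding genes alone were not computed. The members were also chosen with earlier results of these data known. The median log2 change was 0.17 over the members and -0.03 over all genes. With the replicate block 20 members rose and 8 fell, beside 14.9% and 12.0% of all genes. All stimulated values lay above all control values for 19 members (17.8% of all genes) and below them for 8 (15.4% of all genes). The split of calls depends on the scaling over all genes, where 64.5% of calls were rises as deposited and 33.4% with equal library totals, which shifted the median change of all genes to -0.20. With equal totals 12 members rose and 6 fell, and the 19 members called as deposited kept their direction under every alternative that gave them a value (18, or 17 for Rspo4, which the filter of at least 1 CPM in 3 libraries removed). Exons of another gene on the opposite strand cover none of the exonic bases of 42 members, and their share is largest for Notum, Fzd5, Sfrp2, Lef1 and Rspo3, at 13.1% or more. Without stimulated replicate 3, the deepest library, 7 members rose and 1 fell, beside 659 and 258 of all genes. Without control replicate 1 the members' counts were 9 and 2, beside 838 and 326, and without control replicate 3 they were 8 and 2, beside 851 and 312.

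**Figure D1:**
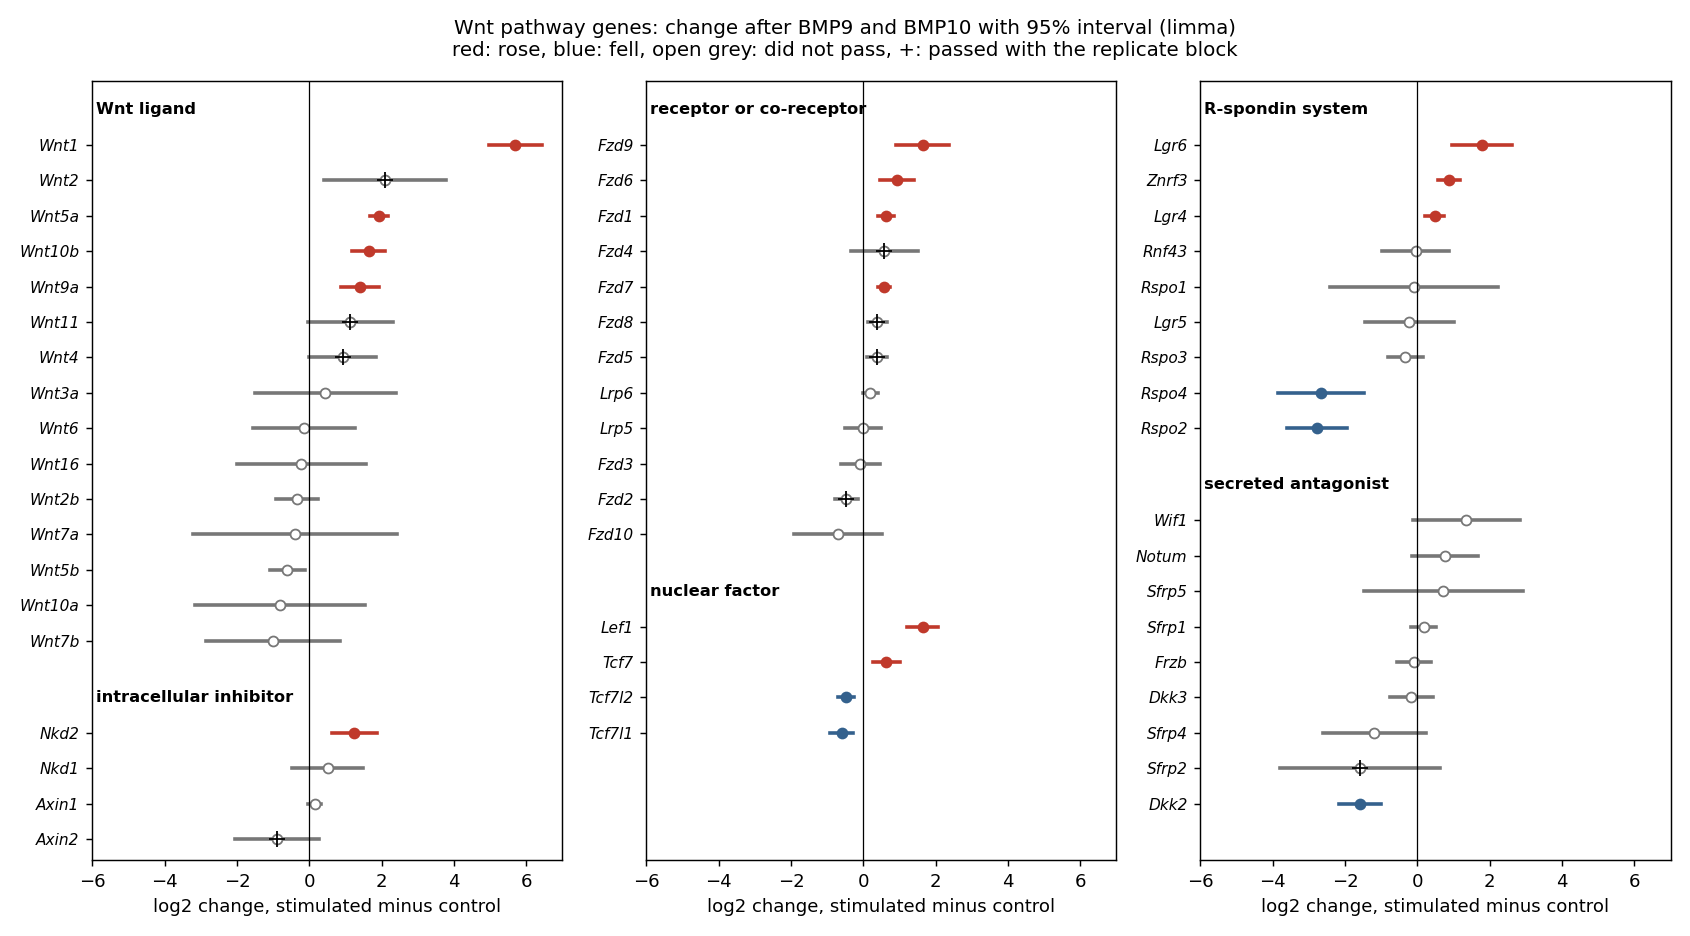
Log2 change (stimulated minus control, x axis) of all 53 members, grouped by role, with the estimate as a point and its 95% interval from limma as a line. Filled red points rose, filled blue points fell, open points did not pass the test, and a cross marks the 9 members that passed on the deposited values with the replicate block and not without it; Wnt1 stands furthest to the right at 5.70.

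Promoters are shown for the 6 called members with the largest change that have a window in the RefSeq-derived table (GRCm38.p6), each covering 250 bases before and 50 bases after the start of transcription, 5′ to 3′ on the gene's strand. Capitals mark matches, on either strand, to the BMP-SMAD motifs GGCGCC and GGAGCC. TCF/LEF motifs (CTTTGAA or CTTTGAT or CTTTGTA or CTTTGTT) and the AP-1 motif TGANTCA were also searched and had no match in these 6 windows. GGCGCC reads the same on both strands. Of Lef1, which has 4 windows, the one nearest the annotated start was taken, and its own start lies 148 bases upstream of the annotated start. The start used for the Fzd9 window lies 183 bases downstream of the annotated start of Fzd9. The windows are Wnt1 at chr15:98789607-98789906 (plus strand), Rspo4 at chr2:151842677-151842976 (plus strand), Lgr6 at chr1:135105227-135105526 (minus strand), Lef1 at chr3:131110073-131110372 (plus strand), Wnt10b at chr15:98778101-98778400 (minus strand) and Fzd9 at chr5:135250998-135251297 (minus strand).
Wnt1 (rose): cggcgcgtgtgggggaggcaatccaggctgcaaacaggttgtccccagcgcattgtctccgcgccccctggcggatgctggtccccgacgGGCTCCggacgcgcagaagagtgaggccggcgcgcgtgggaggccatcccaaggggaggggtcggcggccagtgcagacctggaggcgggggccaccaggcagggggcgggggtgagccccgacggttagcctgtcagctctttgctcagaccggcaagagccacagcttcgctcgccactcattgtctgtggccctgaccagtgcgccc
Rspo4 (fell): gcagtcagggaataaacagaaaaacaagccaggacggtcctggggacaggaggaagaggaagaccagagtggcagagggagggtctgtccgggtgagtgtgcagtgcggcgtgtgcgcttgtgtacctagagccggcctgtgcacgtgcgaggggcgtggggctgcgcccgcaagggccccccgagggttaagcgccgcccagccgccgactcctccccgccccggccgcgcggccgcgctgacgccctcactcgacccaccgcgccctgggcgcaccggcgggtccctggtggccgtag
Lgr6 (rose): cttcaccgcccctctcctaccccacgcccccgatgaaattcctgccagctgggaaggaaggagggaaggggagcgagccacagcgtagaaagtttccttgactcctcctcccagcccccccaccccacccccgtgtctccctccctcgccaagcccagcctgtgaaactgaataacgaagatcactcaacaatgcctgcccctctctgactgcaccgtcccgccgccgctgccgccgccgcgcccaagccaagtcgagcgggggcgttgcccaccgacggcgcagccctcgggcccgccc
Lef1 (rose): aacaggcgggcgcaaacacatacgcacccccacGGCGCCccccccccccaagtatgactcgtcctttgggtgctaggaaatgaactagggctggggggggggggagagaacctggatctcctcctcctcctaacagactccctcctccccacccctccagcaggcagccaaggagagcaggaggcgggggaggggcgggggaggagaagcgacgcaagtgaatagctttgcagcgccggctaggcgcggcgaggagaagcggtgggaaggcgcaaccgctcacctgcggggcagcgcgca
Wnt10b (rose): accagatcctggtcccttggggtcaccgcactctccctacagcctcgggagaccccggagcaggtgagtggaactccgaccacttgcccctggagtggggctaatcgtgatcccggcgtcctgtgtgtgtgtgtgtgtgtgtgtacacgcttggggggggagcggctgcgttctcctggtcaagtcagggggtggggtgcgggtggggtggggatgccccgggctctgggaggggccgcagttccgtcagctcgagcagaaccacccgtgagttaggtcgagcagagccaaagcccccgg
Fzd9 (rose): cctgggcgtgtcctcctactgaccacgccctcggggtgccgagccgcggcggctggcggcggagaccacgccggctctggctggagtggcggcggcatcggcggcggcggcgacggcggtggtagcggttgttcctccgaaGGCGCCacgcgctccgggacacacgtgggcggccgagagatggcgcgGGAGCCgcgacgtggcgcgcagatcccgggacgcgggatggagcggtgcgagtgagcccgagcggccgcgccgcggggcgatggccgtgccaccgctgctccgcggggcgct
The Wnt1 window had 1 match, GGAGCC read on the opposite strand 160 bases before the start. The Lef1 window had GGCGCC 217 bases before the start, and the Fzd9 window had GGCGCC 109 and GGAGCC 62 bases before it. These distances count from the start used for each window. Both Fzd9 matches lie downstream of the annotated start of Fzd9. Over 32851 windows of the same length in the table, 11.9% held GGCGCC, 30.8% held GGAGCC, 16.9% held a TCF/LEF motif and 7.81% held the AP-1 motif. Windows were at hand for 15 of the 19 called members. GGCGCC was in 4 of 11 windows of members that rose and in 2 of 4 of members that fell. GGAGCC was in 7 of 11 and 1 of 4. The TCF/LEF motif occurred in 1 of these 15 windows, that of Fzd7. These matches describe letters only and show no binding.

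Of 15 Wnt ligand genes 4 rose and none fell, and 7 rose with the block. Wnt1, the ligand for which the family is named and which acts through beta-catenin, was close to absent from control cells. It had 126, 115 and 113 normalized read counts in stimulated replicates 1 to 3, against 1, 1 and 2 in controls. These values rest on an estimated 389 reads in stimulated libraries and 4 in controls, a ratio of 84.6 with an exact 95% counting interval from 32.8 to 312. Stimulated libraries were close to each other, and the fitted change was 5.70 ± 0.31 (limma adjusted p = 0.00027). With controls this low the size depends on the pseudocount, at 6.43 for 0.1 and 4.28 for 5. Its neighbour Wnt10b, another beta-catenin ligand, lies on the opposite strand of chromosome 15 (98770712 to 98778150 in mm10), 11.7 kb from Wnt1 (98789857 to 98793837), so that the starts of both genes face each other. Wnt10b was at 276, 179 and 241 in stimulated libraries and at 74, 69 and 75 in controls, and rose by 1.64 ± 0.20 (limma adjusted p = 0.00365).

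Wnt5a, a ligand known mostly for signaling without beta-catenin, held the largest ligand level in both groups. It had 5214, 6719 and 6075 normalized read counts in stimulated libraries, against 1534, 1607 and 1594 in controls, a rise of 1.92 ± 0.11 (limma adjusted p = 0.00027). The lowest stimulated library stood far above the highest control. Wnt9a, a ligand with roles in joint and blood stem cell development, was at 1321, 938 and 1237 in stimulated libraries and at 354, 593 and 396 in controls (1.40 ± 0.22 on the log2 scale, limma adjusted p = 0.00905). Replicate 2 was the lowest for Wnt9a in the stimulated group and the highest in the control group. Without stimulated replicate 3 its change of 1.35 did not pass (limma adjusted p = 0.0574). Wnt3a, which faces Wnt9a on chromosome 11 at a distance of 16.2 kb, was at 4 or less in every library.

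Wnt2, Wnt11 and Wnt4 were higher in the stimulated sample of every same-numbered pair, and with all libraries they passed with the block and not without it. Wnt2, which takes part in lung development, had 163, 360 and 167 normalized read counts in stimulated libraries and 18, 142 and 46 in controls. All stimulated values of Wnt2 were above all controls, with a change of 2.09 ± 0.71 (limma adjusted p = 0.102, and 0.00493 with the block). Wnt11, a ligand of cell movement in development, was at 291, 462 and 432 in stimulated libraries and 101, 403 and 133 in controls (1.14 ± 0.50, limma adjusted p = 0.186, and 0.0268 with the block). Wnt4, known for its role in kidney and gonad formation, was at 136, 188 and 122 in stimulated libraries and 55, 142 and 57 in controls (0.93 ± 0.39, limma adjusted p = 0.172, and 0.0191 with the block). For these 3 genes control replicate 2 reached 4.44, 3.44 and 2.54 times the mean of the other controls, and the stimulated replicate 2 was also the highest of its group. Without control replicate 2, Wnt2 (2.85, limma adjusted p = 0.0236), Wnt11 (1.73, 0.0127) and Wnt4 (1.37, 0.022) passed without a block. Without control replicate 1 the changes were 1.39 for Wnt2, 0.74 for Wnt11 and 0.69 for Wnt4, and none passed (limma adjusted p = 0.215, 0.418 and 0.388).

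The other 8 ligand genes did not pass on the deposited values, with or without the block. Wnt5b, the close relative of Wnt5a, was lower in all stimulated libraries, with 63, 51 and 66 in stimulated libraries and 80, 106 and 89 in controls (-0.60 ± 0.21, limma adjusted p = 0.104, and 0.0767 with the block). With equal library totals and the block Wnt5b passed (-0.77, limma adjusted p = 0.0359). Wnt2b was at 30 to 42 in stimulated libraries and 40 to 52 in controls. Wnt7b ranged from 11 to 47 in stimulated libraries and from 33 to 170 in controls, and Wnt7a from 4 to 27 and from 3 to 98. Wnt16, Wnt10a, Wnt6 and Wnt3a stayed at 15 or less in all libraries, where the 95% intervals of the log2 change are wide, such as -2.01 to 1.58 for Wnt16.

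Per kilobase of exon, the 15 ligand genes together reached 1515 ± 97 normalized read counts per kb in stimulated libraries and 540 ± 161 in controls (SD, n = 3 each). The stimulated libraries ranged from 1411 to 1603 and the controls from 421 to 723. Wnt5a made up 50.5 ± 3.18% of that sum in stimulated libraries and 39.2 ± 9.57% in controls, and Wnt9a 23.3 ± 5.33% and 24.9 ± 0.306% (SD, n = 3 each). Wnt1 made up 3.29 ± 0.404% in stimulated libraries and 0.112 ± 0.0601% in controls. Wnt5b made up 1.50 ± 0.264% in stimulated libraries and 6.57 ± 0.911% in controls. Wnt5a and Wnt9a led the ligand sum in both groups.

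**Figure D2:**
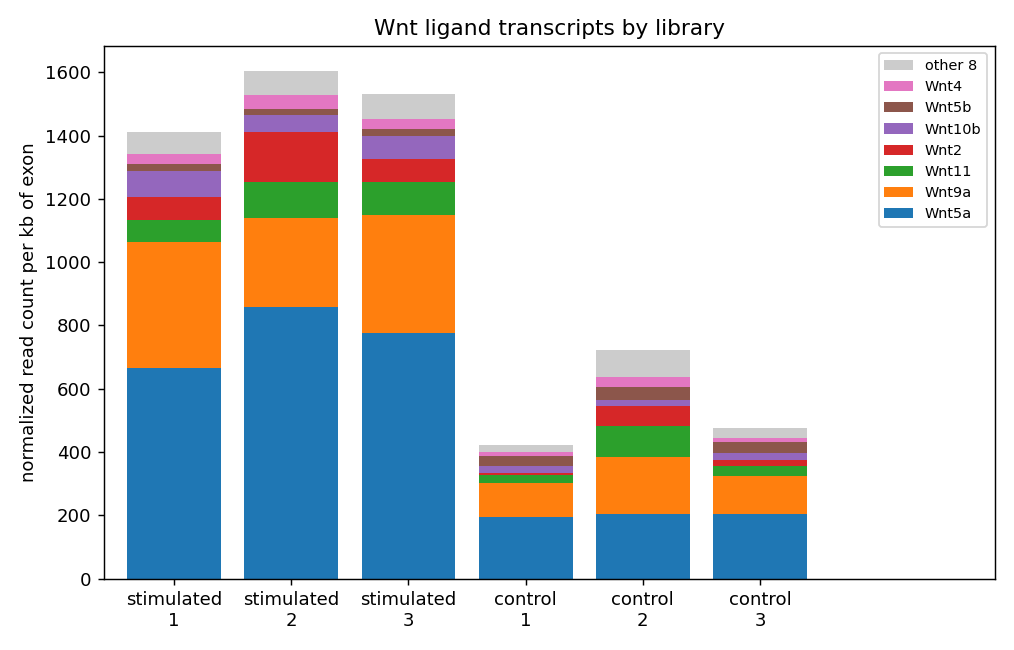
Normalized read counts per kb of exon (y axis, from 0) of the Wnt ligand genes in each library, stacked, with the 7 highest genes in color and the other 8 in grey. The 3 stimulated libraries reach 1411 to 1603 and the 3 control libraries 421 to 723, with Wnt5a the largest share in each bar.

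Of 12 receptor and co-receptor genes 4 rose, all of them Frizzled genes, and none fell, while 7 rose and 1 fell with the block. Frizzled proteins are the seven-pass membrane receptors that bind Wnt. Fzd1, the highest of them per kb, was at 5424, 5399 and 6213 in stimulated libraries and at 3390, 3972 and 3730 in controls (0.62 ± 0.10, limma adjusted p = 0.00852). Fzd7, its close relative, was at 3254, 3142 and 3264 in stimulated libraries and 2152, 2062 and 2273 in controls (0.58 ± 0.07, limma adjusted p = 0.00492). Both rises were modest and stood well clear of the spread between replicates. Fzd6, a receptor of planar cell polarity, was at 1040, 1292 and 1438 in stimulated libraries and at 522, 841 and 642 in controls (0.92 ± 0.20, limma adjusted p = 0.0261). Fzd9, which was low throughout, had 40, 39 and 36 in stimulated libraries and 15, 8 and 13 in controls (1.64 ± 0.31, limma adjusted p = 0.0178).

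The calls of Fzd1 and Fzd7 held under all 18 alternatives. Fzd6 did not pass by limma without stimulated replicate 2 (adjusted p = 0.0683), stimulated replicate 3 (0.113), control replicate 1 (0.0789) or control replicate 3 (0.0949), and Fzd9 without stimulated replicate 1 (0.0522), 2 (0.0506) or 3 (0.0813) or control replicate 3 (0.0575). With 1 library left out the change of Fzd6 lay between 0.76 and 1.10 and that of Fzd9 between 1.39 and 1.81.

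Of the third relative of this subfamily, Fzd2, the level was 913, 1220 and 1052 in stimulated libraries and 1518, 1298 and 1574 in controls. These values do not overlap, and the change of -0.47 ± 0.13 missed the threshold (limma adjusted p = 0.0637). Fzd2 passed in 8 of 18 alternatives. Among these were the block (limma adjusted p = 0.036), equal library totals (-0.64, 0.0173) and leaving out stimulated replicate 2 (-0.57, 0.0426). Fzd8 had 628, 627 and 693 in stimulated libraries and 465, 541 and 481 in controls (0.39 ± 0.11, limma adjusted p = 0.0559). It passed with the block (limma adjusted p = 0.0253), with the filter of at least 1 CPM in 3 libraries (0.0393) and without control replicate 2 (0.0496). Fzd5 had 348, 357 and 400 in stimulated libraries and 264, 300 and 280 in controls (0.39 ± 0.12, limma adjusted p = 0.0774, and 0.0357 with the block). With equal library totals and the block neither Fzd8 (0.22, limma adjusted p = 0.156) nor Fzd5 (0.21, 0.192) passed. Exons of a gene on the other strand cover 17.8% of the exonic bases of Fzd5, so its level is uncertain where counting ignored strand. Fzd4, which also receives the ligand Norrin in endothelial cells, had 627, 1453 and 865 in stimulated libraries and 448, 1004 and 517 in controls. Replicate 2 was the highest of both groups for Fzd4, and its change of 0.59 ± 0.39 passed only with the block (limma adjusted p = 0.375, and 0.00389 with the block). It was 0.26 without stimulated replicate 2 and 0.94 without control replicate 2.

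Neither co-receptor gene passed. Lrp6 was at 4447, 5254 and 4622 in stimulated libraries and at 3888, 4236 and 4344 in controls (0.20 ± 0.09, limma adjusted p = 0.211). Lrp5 was at 1635, 2336 and 1524 in stimulated libraries and at 1582, 2302 and 1632 in controls, a change of -0.01 with a 95% interval from -0.50 to 0.48. Fzd3 lay between 283 and 506 in stimulated libraries and between 331 and 449 in controls, and Fzd10 was at 19 or less in every library. Summed per kb, receptors and co-receptors reached 3508 ± 216 in stimulated libraries and 2650 ± 165 in controls (SD, n = 3 each).

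Of 9 genes of the R-spondin system, 3 rose and 2 fell. R-spondins are secreted proteins that bind LGR4, LGR5 and LGR6 and hold back ZNRF3 and RNF43, the ubiquitin ligases that take Frizzled receptors off the cell surface. Rspo2 was at 16, 15 and 20 in stimulated libraries and at 78, 190 and 118 in controls, and fell by 2.77 ± 0.35 on the log2 scale (limma adjusted p = 0.00455). Rspo4 was at 1, 5 and 4 in stimulated libraries and at 20, 22 and 31 in controls, and fell by 2.67 ± 0.50 (limma adjusted p = 0.0169). Neither gene had a stimulated library as high as any control. Rspo3, the highest R-spondin gene per kb, was at 1664, 955 and 1417 in stimulated libraries and at 1590, 1547 and 1823 in controls (-0.33 ± 0.20, limma adjusted p = 0.334, and 0.125 with the block). Rspo3 passed with equal library totals and the block (-0.50, limma adjusted p = 0.0409), and opposite-strand exons cover 13.1% of its exonic bases. Rspo1 was at 40, 170 and 22 in stimulated libraries and at 23, 211 and 38 in controls, so that replicate 2 of both groups stood apart and the groups overlapped.

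The receptor Lgr6 rose. It was at 1304, 835 and 1426 in stimulated libraries and at 259, 571 and 253 in controls, a change of 1.79 ± 0.35 (limma adjusted p = 0.0195). Its relative Lgr4 was at 655, 570 and 658 in stimulated libraries and at 449, 415 and 488 in controls (0.48 ± 0.11, limma adjusted p = 0.0368). Per kb, Lgr6 lay above Lgr4 in stimulated libraries (means of 173 and 107) and below it in controls (52.7 and 76.6). Lgr5, a stem cell marker and target of the pathway in gut, was at 8, 13 and 14 in stimulated libraries and at 8, 29 and 10 in controls (limma adjusted p = 0.831). Znrf3 was at 591, 561 and 619 in stimulated libraries and at 339, 350 and 279 in controls, a rise of 0.88 ± 0.12 (limma adjusted p = 0.00672). Its partner Rnf43 was low, at 22, 22 and 33 in stimulated libraries and 20, 44 and 20 in controls (limma adjusted p = 0.954).

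The calls of Rspo2 and Znrf3 held under all 18 alternatives. By limma, Rspo4 did not pass without stimulated replicate 3 (adjusted p = 0.0623), control replicate 1 (0.058) or control replicate 3 (0.0757), and Lgr6 without stimulated replicate 1 (0.0593) or 3 (0.0946) or control replicate 1 (0.0746) or 3 (0.0778). Lgr4 did not pass with equal library totals (0.30, adjusted p = 0.119), upper-quartile factors (0.40, 0.0825) or limma-voom (0.30, 0.126), nor without stimulated replicate 1 (0.091) or 3 (0.144) or control replicate 1 (0.118), 2 (0.0805) or 3 (0.0784). With 1 library left out the change of Rspo4 lay between -2.98 and -2.19, that of Lgr6 between 1.59 and 2.17 and that of Lgr4 between 0.42 and 0.54.

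**Figure D3:**
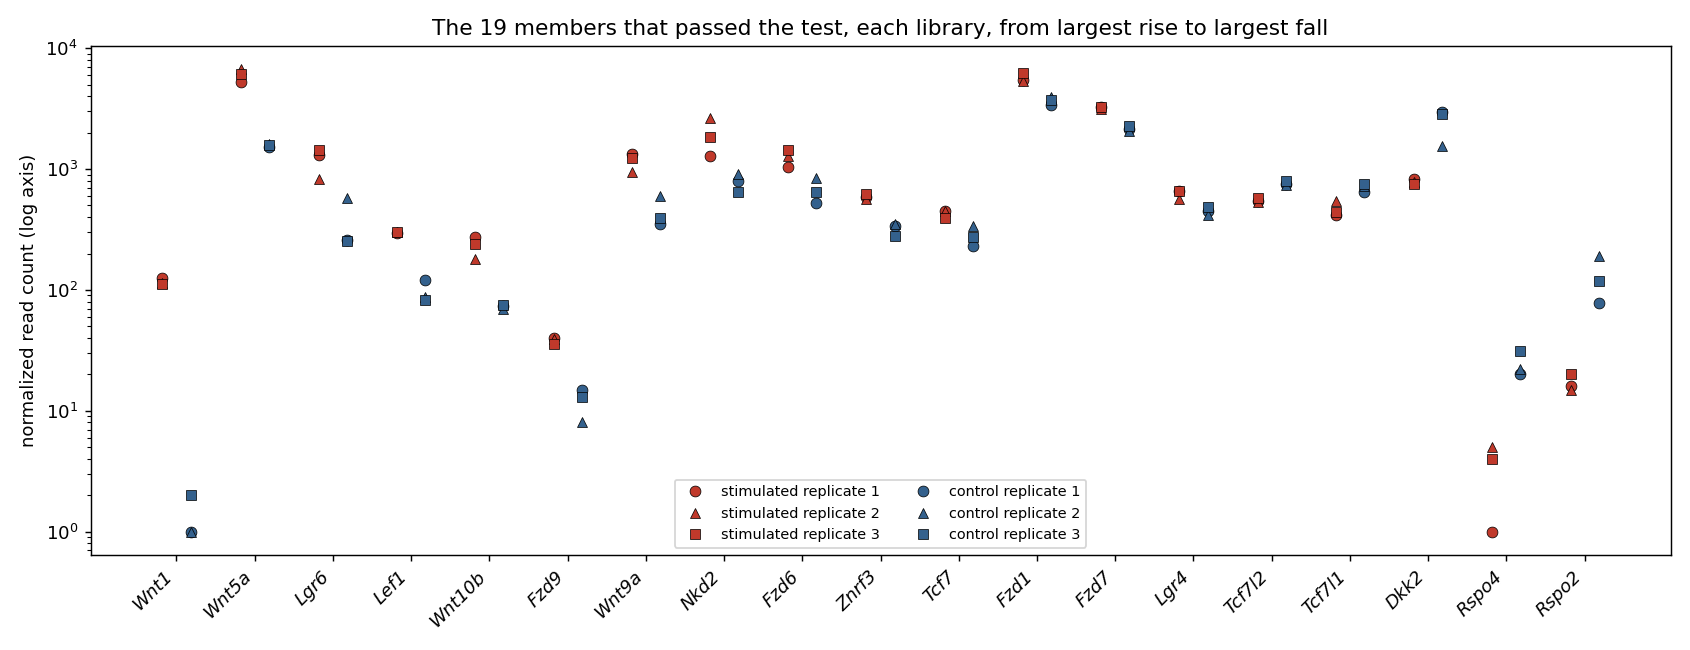
Normalized read counts (log axis) of the 19 members that passed the test, in order of their log2 change, with stimulated libraries in red to the left of control libraries in blue and a marker shape for each replicate number. The groups do not overlap for any of these genes, and Wnt1 shows the widest gap, with 113 to 126 in stimulated libraries and 1 to 2 in controls.

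Among 9 secreted antagonist genes 1 fell and none rose, and 2 fell with the block. Dkk2, whose protein binds LRP5 and LRP6, was at 824, 788 and 755 in stimulated libraries and at 2986, 1544 and 2836 in controls. It fell by 1.58 ± 0.24 on the log2 scale (limma adjusted p = 0.00843), and the call was lost without stimulated replicate 3 (-1.55, limma adjusted p = 0.0531). Stimulated libraries were within a narrow range, while control replicate 2 stood well below the other controls. Dkk3, a divergent member of that family and the highest antagonist gene per kb, was at 12223, 7407 and 9933 in stimulated libraries and at 12667, 7647 and 13090 in controls (-0.17 ± 0.25, limma adjusted p = 0.722, and 0.21 with the block). Dkk3 was lower in the stimulated sample of each pair and passed with equal library totals and the block (-0.34, limma adjusted p = 0.0214). In Dkk3 replicate 2 was the lowest of both groups.

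The secreted Frizzled-related proteins bind Wnt outside the cell. Sfrp1 was at 6273, 6028 and 5927 in stimulated libraries and at 4282, 6564 and 5579 in controls (0.17 ± 0.15, limma adjusted p = 0.511). Sfrp2 was at 29, 195 and 63 in stimulated libraries and at 75, 716 and 181 in controls. Sfrp2 was lower in the stimulated library of each same-numbered pair, while replicate 2 was 4.24 times the mean of the others in stimulated libraries and 5.59 times in controls. Its change of -1.57 ± 0.94 passed only with the block (limma adjusted p = 0.324, and 0.00108 with the block). It was -2.32 without control replicate 1 and -0.70 without control replicate 2, and opposite-strand exons cover 16.1% of the exonic bases of Sfrp2. Frzb was at 149 to 211 in stimulated libraries and 180 to 243 in controls. Sfrp4, Sfrp5 and the Wnt-binding Wif1 stayed at 39 or less, and Notum, which removes the lipid from Wnt proteins, was at 21, 31 and 33 in stimulated libraries and 14, 26 and 11 in controls (limma adjusted p = 0.25). For Notum, exons on the other strand cover 38.1% of its exonic bases, so its level is uncertain where counting ignored strand.

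Of 4 intracellular inhibitor genes, 1 rose and none fell, and 1 fell with the block. Nkd2, whose protein binds Dishevelled, was at 1279, 2669 and 1845 in stimulated libraries and at 794, 910 and 649 in controls, a rise of 1.25 ± 0.26 (limma adjusted p = 0.0252). Nkd1 was at 204, 373 and 190 in stimulated libraries and at 105, 298 and 160 in controls, higher in each same-numbered pair without passing (0.51 ± 0.42, limma adjusted p = 0.483, and 0.0664 with the block). Axin2, a scaffold of the beta-catenin destruction complex whose transcription is widely used as a readout of beta-catenin signaling, was at 48, 100 and 54 in stimulated libraries and at 64, 226 and 116 in controls. Axin2 was lower in the stimulated library of each pair, the groups overlapped, and the change of -0.89 ± 0.49 passed only with the block (limma adjusted p = 0.285, and 0.0217 with the block). It was -1.33 without control replicate 1 and -0.43 without control replicate 2. Its constitutive relative Axin1 was at 1584, 1658 and 1564 in stimulated libraries and at 1484, 1411 and 1433 in controls (0.15 ± 0.08, limma adjusted p = 0.244), and the sign of that change turned with equal library totals (-0.02). Nkd2 did not pass by limma without stimulated replicate 3 (adjusted p = 0.102), control replicate 1 (0.0824) or control replicate 3 (0.0965), while its change lay between 0.98 and 1.51 with 1 library left out.

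All 4 genes of the TCF/LEF family passed, 2 in each direction. These proteins bind DNA at Wnt target genes, with beta-catenin as an activator, and TCF7L1 is known mostly as a repressor. Lef1 was at 296, 304 and 300 in stimulated libraries and at 121, 87 and 82 in controls, a rise of 1.65 ± 0.18 (limma adjusted p = 0.00272) that held under all 18 alternatives. Tcf7 was at 447, 454 and 396 in stimulated libraries and at 232, 335 and 274 in controls (0.64 ± 0.16, limma adjusted p = 0.0422). Tcf7l1 was at 414, 549 and 442 in stimulated libraries and at 641, 727 and 749 in controls (-0.60 ± 0.14, limma adjusted p = 0.0321). Tcf7l2 was at 540, 529 and 573 in stimulated libraries and at 752, 736 and 790 in controls (-0.47 ± 0.09, limma adjusted p = 0.0185). Per kb, Tcf7 was the highest of the family in stimulated libraries, with 43.3 ± 2.29% of the family sum against 27.7 ± 3.28% in controls (SD, n = 3 each). Tcf7l1 held 31.3 ± 2.94% in stimulated libraries and 46.8 ± 1.43% in controls. The family sum itself was 381 ± 23.9 per kb in stimulated libraries and 384 ± 29.2 in controls (SD, n = 3 each). Exons on the other strand cover 13.7% of the exonic bases of Lef1.

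With fewer libraries several of these calls were lost at changes of about the same size. The call of Tcf7 was also lost in some settings with all 6 libraries, at smaller changes. By limma, Tcf7 did not pass with equal library totals (0.46, adjusted p = 0.11), upper-quartile factors (0.56, 0.0568) or limma-voom (0.47, 0.106), nor without stimulated replicate 1 (0.102), 2 (0.0997) or 3 (0.109) or control replicate 1 (0.126) or 3 (0.131). Tcf7l1 did not pass without stimulated replicate 1 (0.0787) or 3 (0.127) or control replicate 1 (0.0715), 2 (0.0754) or 3 (0.121), and Tcf7l2 without stimulated replicate 3 (0.0663) or control replicate 1 (0.0754) or 3 (0.0854). With 1 library left out the change lay between 0.51 and 0.77 for Tcf7, between -0.72 and -0.51 for Tcf7l1 and between -0.51 and -0.44 for Tcf7l2.

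Replicate 2 held the highest value in both groups for 16 of 53 members (30.2%), beside 22.6% of all gene rows, and nothing particular to the pathway is read from it. The pattern was strongest for Rspo1, with replicate 2 at 5.48 times the mean of the other stimulated libraries and 6.92 times that of the other controls, and for Sfrp2. It also held for Wnt2, Wnt4, Wnt11, Fzd4, Axin2 and Nkd1, and in these libraries the endothelial, epithelial and mesothelial marker sums were highest as well. Each of the 12 endothelial genes shared the pattern. The part of these cells in the members' levels was not tested. With both replicate 2 libraries left out, 17 members rose and 6 fell.

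**Figure D4:**
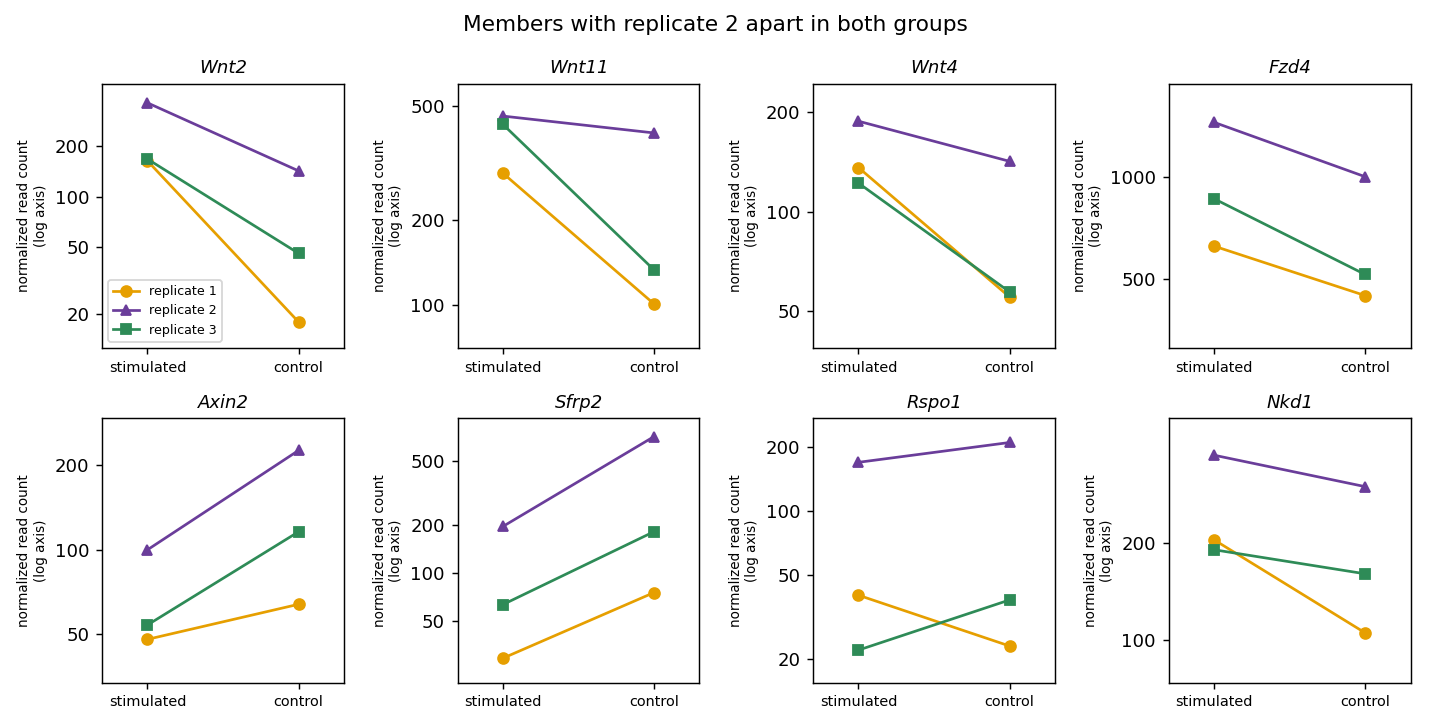
Normalized read counts (log axis) of 8 members whose replicate 2 is the highest in both groups, with stimulated values on the left and control values on the right, and a line joining the samples that share a replicate number. Lines slope the same way in all 3 pairs for Wnt2, Wnt11, Wnt4, Fzd4, Axin2, Sfrp2 and Nkd1, while those of Rspo1 cross.

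Other genes of the pathway, outside the rule, were taken from 6 lists. These lists were chosen with earlier results of these data known, so their shares beside those of all genes are no test. All genes tested also include rows that are not protein-coding. Of 136 tested, 26 rose (19.1%) and 9 fell (6.62%), beside 8.61% and 4.75% of all genes. The other 101 did not pass, and the median log2 change was 0.09. With the block 44 rose and 23 fell, beside 14.9% and 12.0% of all genes. With equal library totals 18 rose and 20 fell, beside 1135 and 2265 of all genes. Without stimulated replicate 3, 14 rose and 3 fell, without control replicate 1, 16 and 5, and without control replicate 3, 15 and 3, and over all genes these settings also left fewer calls (659 and 258, 838 and 326, and 851 and 312). None of 8 Wnt secretion genes passed (2 rose with the block), and the one with the smallest p was Tmed2, a cargo receptor (0.31 ± 0.10, limma adjusted p = 0.098, and 0.041 with the block).

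Another list held 21 genes of receptors that act without beta-catenin and of planar polarity, with Dact genes and Mcc beside them. Of these, 3 rose (14.3%) and 2 fell (9.52%). With the block 6 and 4 did. Ror1, a Wnt5a receptor gene, was at 561, 725 and 733 in stimulated libraries and at 334, 355 and 365 in controls (0.93 ± 0.13, limma adjusted p = 0.00706). Its relative Ror2 rose by 0.55 ± 0.11 (limma adjusted p = 0.0231), and Dact3, a Dishevelled-binding protein gene, by 1.10 ± 0.11 (0.00183). Daam1 and Daam2, whose proteins link Dishevelled to actin assembly, fell by 0.71 ± 0.15 each on the log2 scale (limma adjusted p = 0.023 and 0.0221).

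Of 20 other extracellular and membrane modulators 4 rose (20%) and 1 fell (5%). With the block 6 and 3 did. Apcdd1, a membrane inhibitor of Wnt and itself a target of the pathway, was at 235, 298 and 261 in stimulated libraries and at 1856, 768 and 1443 in controls, and fell by 2.27 ± 0.31 on the log2 scale (limma adjusted p = 0.00564). Ccn4, a matricellular gene also called Wnt-induced, rose by 1.14 ± 0.10 (limma adjusted p = 0.0011). Bambi, a decoy receptor of the TGF-beta family, rose by 1.38 ± 0.29, and the sulfatase gene Sulf1 by 0.45 ± 0.09. Cthrc1, which encodes a secreted glycoprotein, was at 495, 918 and 840 in stimulated libraries and at 268, 334 and 367 in controls, and rose as well (limma adjusted p = 0.0251).

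Of 29 genes of beta-catenin destruction and signal transduction 7 rose (24.1%) and 2 fell (6.9%, beside 4.75% of all genes). With the block 10 and 3 did. Tnks2, a tankyrase that marks Axin for breakdown, rose by 0.54 ± 0.08 (limma adjusted p = 0.00814). The kinase gene Csnk1g3 (0.49 ± 0.09), the phosphatase subunit gene Ppp2r5e (0.43 ± 0.08) and the ubiquitin ligase gene Fbxw11 (0.36 ± 0.08) rose, and Apc2 fell by 0.94 ± 0.19 on the log2 scale (limma adjusted p = 0.02). Of 22 nuclear cofactors 1 rose (4.5%, beside 8.61% of all genes) and 3 fell (13.6%, beside 4.75%). With the block 4 and 6 did. The corepressor gene Tle1 rose by 0.69 ± 0.12 (limma adjusted p = 0.013). Its relatives Tle2 (-0.60 ± 0.13) and Aes (-0.41 ± 0.10) and the adaptor gene Ldb1 (-0.61 ± 0.09) fell.

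Of 36 other genes reported as Wnt targets 11 rose (30.6%) and 1 fell (2.78%), beside 8.61% and 4.75% of all genes. With the block 16 and 7 did. Those with the smallest p were Id2, Ccn1, Jag1, Vegfa and Cd44, of which the first is also known as a direct BMP target. Jag1, a Notch ligand gene, was at 9757, 8928 and 10449 in stimulated libraries and at 824, 1529 and 805 in controls (3.27 ± 0.24, limma adjusted p = 0.000832). Id2, an inhibitor of helix-loop-helix factors, was at 4292, 4247 and 4217 in stimulated libraries and at 702, 980 and 635 in controls (2.48 ± 0.16, limma adjusted p = 0.00048). Cd44, a hyaluronan receptor gene, was at 15701, 15787 and 15386 in stimulated libraries and at 8807, 7333 and 8619 in controls (0.93 ± 0.09, limma adjusted p = 0.00175). This list holds genes that answer to several pathways. Of the 24 called genes named from the 6 lists, 13 were not called without stimulated replicate 3 (limma adjusted p from 0.0684 to 0.145): Aes, Apc2, Bambi, Csnk1g3, Cthrc1, Daam1, Daam2, Fbxw11, Ppp2r5e, Ror2, Sulf1, Tle1 and Tle2. Each of the other 5 libraries, left out alone, also ended the call of some of these 13 (adjusted p from 0.051 to 0.136).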

How the data were processed

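RNA went into stranded total-RNA libraries, per the labels' protocols. DESeq2 1.18.1, featureCounts 1.6.3, STAR 2.6.1d, Trimmomatic 0.38 and FastQC are listed, with no order, in the submitters' processing notes, beside builds mm10, hg38 and GRCh38. Whether counting used strand, and which annotation release, is not given in the sources used here. The deposited values, entered as a score, are read counts times 1 factor per library, rounded by the authors, as gaps and doublings among whole numbers show. Factors were estimated at 0.584 to 1.32. Below 1 a factor merges neighbouring counts, so single reads could not be recovered and no count model was run.

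Members were matched through GENCODE M21 (mm10), which held 21747 of 21785 identifiers and gave exon lengths and opposite-strand overlaps. RefSeq promoters (GRCm38.p6) matched 35 of 53 members by symbol. limma 3.58.1 (R 4.3.3) with a mean-variance trend was run on log2(value + 1). Genes with a mean under 1 were left out (42), which left 21743. Treatment was the only term, and 0.05 the threshold on adjusted p. The fit was tested on simulated data. Alternatives were RLE, TMM, upper-quartile and equal-total scaling, pseudocounts of 0.1 and 5, and no filter or 1 CPM in 3 libraries. Further ones were limma-voom, the replicate block, and leaving out libraries. The limma-voom fit also scales by library totals, so it repeats the equal-total scaling and is no independent check of it.

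Pairing was checked over 13185 genes averaging 50 or more. The correlation of deviations from the group mean was 0.747, 0.741 and 0.218 for replicates 1, 2 and 3, all above 0.1, and the numbers were therefore taken to pair the samples. No label explains the numbers, and control replicate 3 correlated more with stimulated replicate 1 (0.287). Members, lists and motifs were chosen with earlier results of these data known. Named are the members and, of each other list, up to 5 called genes with the smallest p, or 1 where none passed. Intervals on reads cover counting error only.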

Additional observations from a re-analysis of the deposited data

How the results depend on the processing

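Of the 19 called members, 8 were called in all 18 alternatives (Fzd1, Fzd7, Lef1, Rspo2, Wnt1, Wnt5a, Wnt10b and Znrf3), and none of the 19 changed direction where it had a value (Rspo4 had one in 17). Of the other 34, 14 changed sign somewhere and 12 passed somewhere. The number of members that rose ranged from 7 to 17 when 1 library was left out, and of those that fell from 1 to 6. With the replicate block, because the numbers paired the samples, 8 members fell, 3232 of all genes rose and 2605 fell, and 44 other pathway genes rose and 23 fell; the block ended no call of a member. With equal library totals and the block 11 members, 41 other pathway genes and 4916 of all genes fell. With equal library totals 1135 genes rose and 2265 fell over all genes, and 20 other pathway genes fell; with limma-voom these numbers were 1128, 2252 and 19, and with upper-quartile factors 14 other pathway genes fell. Leaving out 1 library gave 659 to 1583 rises and 258 to 801 falls over all genes, and 14 to 24 rises and 3 to 8 falls of other pathway genes.

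The changes that turned sign were those of uncalled members. Without both replicate 2 libraries the log2 change was 0.22 for Lgr5, 0.41 for Rnf43, 0.0054 for Rspo1, 0.56 for Wnt7a and 0.21 for Frzb. Axin1 was at -0.0223 with equal totals, -0.0224 with limma-voom and -0.0223 with equal totals and the block, and Sfrp1 at -0.0016, -0.0013 and -0.0016. Leaving out 1 library gave -0.56 to 0.31 for Lgr5, -0.24 to 0.32 for Rnf43, -0.93 to 0.83 for Rspo1, -0.0594 to 1.16 for Wnt3a, -1.50 to 0.82 for Wnt7a, -0.93 to 0.28 for Wnt16, -0.40 to 0.39 for Wnt6, -0.30 to 0.12 for Fzd3, -0.20 to 0.16 for Lrp5, -0.0409 to 1.75 for Sfrp5, -0.42 to 0.0258 for Dkk3 and -0.18 to 0.0679 for Frzb. The cause of these shifts was not tested. Both low members and high ones, such as Dkk3, Sfrp1 and Axin1, turned sign. Of the 53 members, 10 had a mean under 20, where a few reads move the value.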
